A study of Mus musculus with 6 samples.

Results

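Short CDR3 clonotypes of the immunoglobulin heavy chain (IgH) were examined, that is, rearrangements in which the third complementarity-determining region (CDR3) had 10 or fewer amino acids, counted with its first cysteine and last tryptophan, and no stop codon. They were chosen by CDR3 length alone, and 1444 of the 14372 productive IgH clonotypes met the rule, 763 in 1 iB-μMT mouse (called iB mouse) and 681 in 1 C57BL/6 (B6) mouse. The iB mouse was a μMT mouse, a strain that makes no mature B cells of its own, which had been sublethally irradiated, given doxycycline in its water and transplanted with GFP-marked hematopoietic progenitors (iHPCs) made from embryonic stem cells of C57BL/6 background that carry inducible Runx1, Hoxa9 and Lhx2. The regenerated (iB) cells were taken from the spleen 4 weeks after transplantation, the control was a B6 mouse for which no treatment is named, and naïve follicular (FO) B cells, 100000 in each mouse, were sorted by surface markers that included IgD and IgM. Per the study's methods, irradiated μMT recipients were 8 to 10 weeks old; the age of the B6 control is not given in the sources used here. Heavy chain cDNA was amplified from the 5′ end and sequenced, which yielded 909806 reads in 7794 clonotypes from the iB mouse and 1383617 reads in 6781 clonotypes from the B6 mouse. There was 1 library for each group, so no test between the mice was possible, and all 95% intervals below (Wilson's method for a share, Newcombe's for a difference between shares, a normal approximation for a difference between means) cover counting error only. The extract protocol speaks of IgG libraries, but among the short clonotypes with a constant region hit all 746 in the iB mouse and 672 of 673 in the B6 mouse were called IGHM, the constant region of IgM.

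The IgH CDR3 is the most variable loop of an antibody and lies at the centre of its antigen-binding site. It is built when a V, a D and a J segment are joined: nucleases trim the segment ends, and terminal deoxynucleotidyl transferase (TdT) adds nucleotides that no segment encodes. A CDR3 can therefore be short through the choice of a segment with a short end, through trimming, or through few added nucleotides. Where so little D sequence is left that it cannot be recognised, a clonotype is listed without a D hit.

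The short clonotypes with the most reads in each mouse are shown to make these parts visible, 5′ to 3′ from the cysteine codon to the tryptophan codon, with the bases assigned to V, D or J in lower case and the bases between the segments in capitals.
iB, IGHV1-62-3, IGHD2-3, IGHJ2, 924 reads: tgtgcaagatggttactagactactgg
iB, IGHV1-82, no D hit, IGHJ2, 600 reads: tgtgcaagaGGGGactttgactactgg
iB, IGHV9-1, IGHD4-1, IGHJ2, 561 reads: tgtgttaactgggactactttgactactgg
iB, IGHV9-3, no D hit, IGHJ3, 558 reads: tgtgcaagaGggtttgcttactgg
B6, IGHV1-74, IGHD2-3, IGHJ3, 916 reads: tgtgcaataGGGTCCccatcCCCCtactgg
B6, IGHV1-18, IGHD3-1, IGHJ3, 876 reads: tgtgcaagaGAgggctaTtttgcttactgg
B6, IGHV1-81, no D hit, IGHJ3, 850 reads: tgtgcaagaGAGGggtttgcttactgg
B6, IGHV1-64, no D hit, IGHJ2, 814 reads: tgtgcaGTAGactttgactactgg
All 8 used IGHJ2 or IGHJ3, and 4 had no D hit. In the iB mouse, the clonotype with the most reads joined 9 V, 9 D and 9 J nucleotides with none between them, and the one with IGHD4-1 joined 5 V, 8 D and 17 J nucleotides, again with none between them. In the B6 mouse, the clonotype with the most reads carried 6 nucleotides at its V–D junction and 4 at its D–J junction.

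The shortest members are shown as the lower end of the range.
iB, IGHV3-6, IGHJ2, 4 amino acids, 115 reads: tttgactactgg
iB, IGHV9-1, IGHJ3, 6 amino acids, 136 reads: tgtgtaagaCTttactgg
B6, IGHV1-59, IGHJ3, 6 amino acids, 419 reads: tgtgcaaCGgcttactgg
B6, IGHV1-64, IGHJ2, 6 amino acids, 202 reads: tgtgGTtttgactactgg
The iB clonotype with 4 amino acids lacked the cysteine codon, and its V and J alignments overlapped by 4 nucleotides. In all, 6 short clonotypes of the iB mouse and 20 of the B6 mouse lacked the first cysteine or the last tryptophan. The other 3 sequences kept both codons, with 2 nucleotides between V and J.

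At the limit of 10 amino acids, short CDR3s made up a similar share of the repertoire in both mice, but their lengths were distributed differently. Of the productive clonotypes, 9.86% (95% interval 9.21 to 10.54) were short in the iB mouse and 10.3% (9.56 to 11.02) in the B6 mouse, and the difference, iB minus B6, was -0.413 percentage points (-1.40 to 0.571). This difference depended on the limit: with 9 amino acids it was -1.18 points and with 11 it was 0.829 points. With a limit of 9 the shares were 4.51% (iB) and 5.69% (B6). No interval is given for the differences at these other limits. Most short clonotypes lay at the upper edge of the range: 414 had 10 amino acids, 238 had 9, 74 had 8 and 33 had 7 in the iB mouse, against 304, 199, 105 and 67 in the B6 mouse. CDR3s of 8 or fewer amino acids were 14.5% (12.2 to 17.2) of the short clonotypes in the iB mouse and 26.1% (23.0 to 29.6) in the B6 mouse. A stop codon was found in 7 further short rearrangements of the iB mouse and in 18 of the B6 mouse, which were left out.

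**Figure D1:**
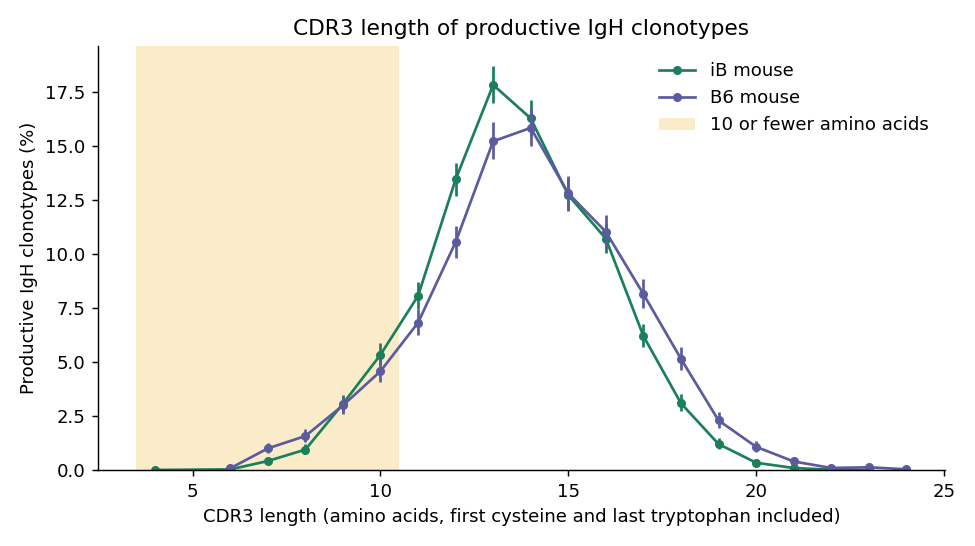
CDR3 length in amino acids (x axis) against the share of productive IgH clonotypes in percent (y axis), with 95% Wilson intervals, for 7741 clonotypes of the iB mouse (green) and 6631 of the B6 mouse (violet). The shaded range holds the short clonotypes, where the curves lie close to each other at 9 amino acids and the B6 curve lies above at 7 and 8. At 10 amino acids the iB curve lies above, with 5.35% (4.87 to 5.87) against 4.58% (4.11 to 5.11).

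The features on both sides of the limit are given as a description. Clonotypes with 10 amino acids, just inside, had no D hit in 34.5% (iB) and 39.5% (B6), while those with 11, just outside (625 and 453 clonotypes), had none in 29.1% and 31.3%. With a D hit, the mean number of inserted nucleotides was 2.55 against 2.68 in the iB mouse, and 3.58 against 4.51 in the B6 mouse. IGHJ4 was used by 6.76% of the clonotypes with 10 and 13.4% of those with 11 amino acids in the iB mouse, and by 11.5% and 15.7% in the B6 mouse. IGHD4-1 was named in 42.4% and 35.4% of those with a D hit in the iB mouse, and in 28.8% and 21.2% in the B6 mouse.

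In the B6 mouse, many short clonotypes were close copies of larger ones. There, 117 of the 681 short clonotypes (17.2%, 14.5 to 20.2) differed by 1 nucleotide from a clonotype of the same length, V gene and J gene that had at least 10 times its reads, against 3.38% (2.95 to 3.87) of the longer clonotypes. In the iB mouse these shares were 2.75% (1.81 to 4.17) and 0.874% (0.681 to 1.12). The 117 near copies had 2 to 27 reads (median 8) and were spread over 101 combinations of V, J and length, with at most 3 in any one. With near copies merged into the larger clonotype, 564 short clonotypes remained in the B6 mouse and 742 in the iB mouse, and the difference in share changed to 0.754 points, higher in the iB mouse. The share with 8 or fewer amino acids was then 13.9% (11.6 to 16.6) of the short clonotypes in the iB mouse and 23.0% (19.8 to 26.7) in the B6 mouse. The origin of the near copies was not tested.

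How the loss of length was divided between the segments was followed in the clonotypes with a D hit, 426 short ones in the iB mouse and 329 in the B6 mouse. Since these parts add up to the length that chose the members, their differences are a description and carry no test. The short CDR3s had a mean of 28.7 nucleotides in the iB mouse and 28.0 in the B6 mouse, against 42.7 and 44.1 in the other productive clonotypes. The J part took the largest share of this difference in both mice, 52.5% in the iB mouse and 48.4% in the B6 mouse. It held 11.1 ± 3.13 nucleotides (mean ± SD over clonotypes) in the short and 18.5 ± 4.5 in the other clonotypes of the iB mouse, and 9.71 ± 3.85 and 17.5 ± 4.73 in the B6 mouse. For the D part the difference, short minus other, was -3.37 nucleotides (-3.61 to -3.13) in the iB mouse and -4.02 (-4.31 to -3.72) in the B6 mouse. The V part differed by -1.21 nucleotides in both mice.

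**Figure D2:**
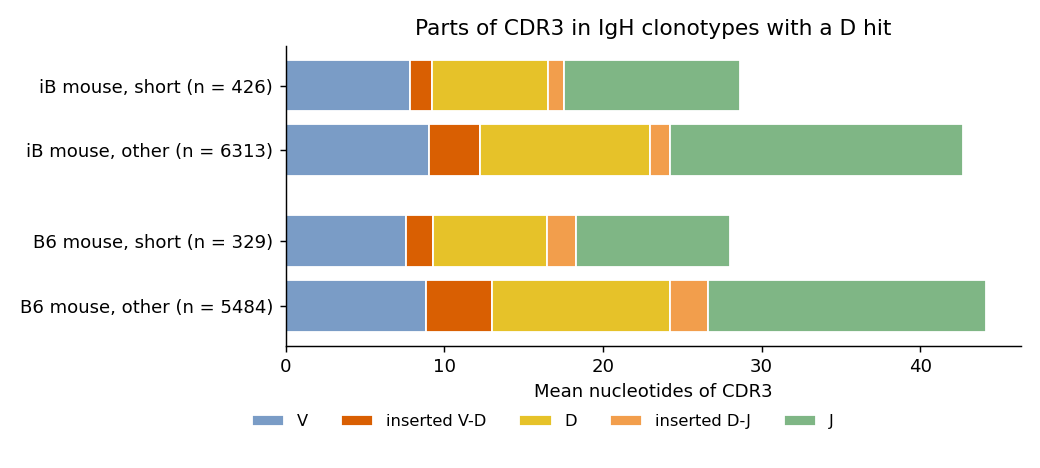
Mean nucleotides of CDR3 (x axis) from V, inserted at the V–D junction, D, inserted at the D–J junction, and J, stacked in that order for short and other productive clonotypes with a D hit in each mouse; n is the number of clonotypes. The J block differs most, by -7.38 nucleotides, short minus other, in the iB mouse and -7.79 in the B6 mouse.

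Short clonotypes carried fewer inserted nucleotides than longer ones of the same mouse. The sum at both junctions was 2.36 ± 2.03 nucleotides in the short and 4.45 ± 3.10 in the other clonotypes of the iB mouse, and 3.49 ± 2.33 and 6.55 ± 3.86 in the B6 mouse. The loss lay mainly at the V–D junction, with a difference, short minus other, of -1.85 nucleotides (-2.01 to -1.70) in the iB mouse and -2.49 (-2.69 to -2.29) in the B6 mouse. At the D–J junction it was -0.240 (-0.385 to -0.0943) and -0.566 (-0.789 to -0.343). No nucleotide was inserted between V and D in 38.5% (34.0 to 43.2) of the short clonotypes of the iB mouse, against 14.9% of the others, and in 29.8% (25.1 to 34.9) against 9.96% in the B6 mouse. The share without an insertion between D and J differed little with length: 55.4% (50.7 to 60.1) of the short and 54.0% (52.8 to 55.3) of the other clonotypes in the iB mouse, and 31.3% (26.5 to 36.5) and 28.8% (27.6 to 30.0) in the B6 mouse. Clonotypes without any inserted nucleotide were 19.2% (15.8 to 23.3) of the short ones in the iB mouse and 7.90% (5.45 to 11.3) in the B6 mouse, against 8.02% and 2.37% of the others. The lower insertion number of the iB mouse was thus present in the short clonotypes as well, at matched length: at 10 amino acids the mean was 2.55 ± 2.08 nucleotides (271 clonotypes) against 3.58 ± 2.28 (184 clonotypes), and at 9 it was 2.20 ± 1.963 against 3.41 ± 2.31.

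**Figure D3:**
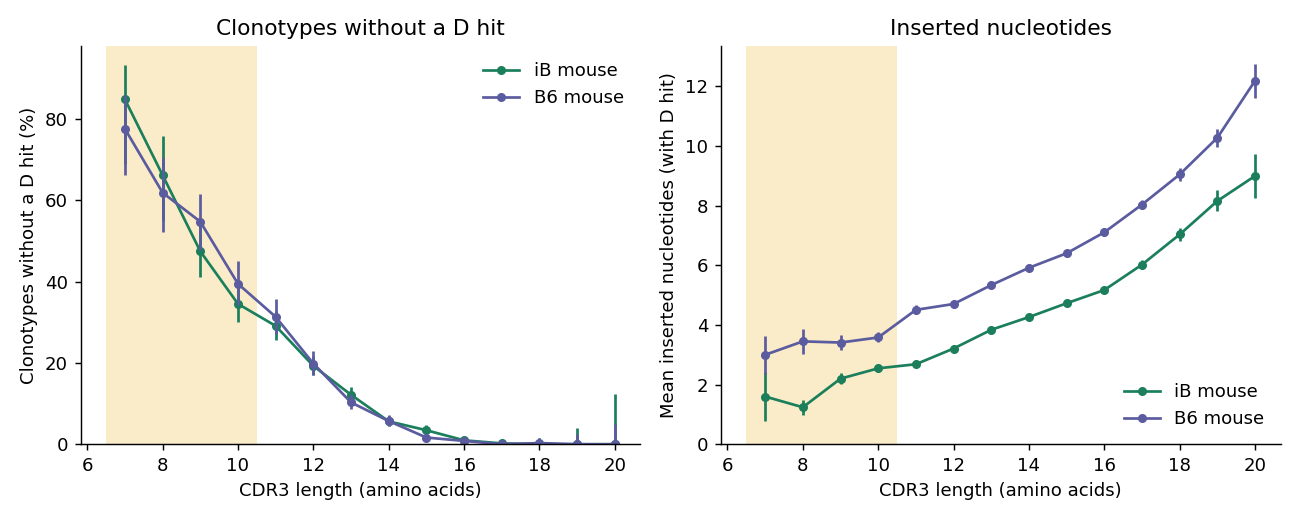
CDR3 length in amino acids (x axes, 7 to 20) against the share of productive clonotypes without a D hit in percent, with 95% Wilson intervals (left), and against the mean number of inserted nucleotides in clonotypes with a D hit, with the standard error over clonotypes (right). The share without a D hit falls from 84.8% and 77.6% at 7 amino acids to 34.5% and 39.5% at 10 in the iB and B6 mouse, and the iB curve of inserted nucleotides lies below the B6 curve at every length drawn.

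A D segment could often not be recognised in the short clonotypes. No D hit was given for 44.2% (40.7 to 47.7) of them in the iB mouse and for 51.7% (47.9 to 55.4) in the B6 mouse, against 9.53% (8.86 to 10.2) and 7.83% (7.18 to 8.54) of the others. In these clonotypes the stretch between the V and J alignments had a mean of 3.54 ± 3.13 nucleotides in the iB mouse (337 clonotypes) and 4.90 ± 3.005 in the B6 mouse (352 clonotypes). The V and J alignments overlapped in 28 of the 337 and 12 of the 352. Inserted and D-derived bases cannot be told apart in this stretch, so these clonotypes are not in the insertion numbers above. Where a D hit was given, it spanned at least 8 nucleotides in 39.9% (35.4 to 44.6) of the short clonotypes of the iB mouse and in 35.6% (30.6 to 40.9) of those of the B6 mouse, against 74.7% and 77.8% of the others, so the D gene named in short CDR3s rests on few bases.

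Among the D genes named, IGHD4-1, the D segment nearest to the J segments among those used, was by far the most frequent in short clonotypes of the iB mouse. It has 11 nucleotides when untrimmed, against 16 or more for the IGHD1, IGHD2 and IGHD3 genes named here. Of the short clonotypes with a D hit, 46.0% (41.3 to 50.8) carried it in the iB mouse and 23.7% (19.4 to 28.6) in the B6 mouse, against 16.9% and 8.84% of the others. IGHD1-1, with 23 nucleotides, stood the other way, with 6.57% (4.59 to 9.34) of the short and 23.2% of the other clonotypes in the iB mouse, and 17.02% (13.3 to 21.5) and 35.4% in the B6 mouse. IGHD2-4 was likewise less frequent among the short ones, with 5.87% against 14.4% and 10.3% against 14.95%. IGHD2-3 took 11.7% of the short and 16.4% of the other clonotypes in the iB mouse, but 11.2% and 11.3% in the B6 mouse. IGHD5-7, with few clonotypes (15 and 19 short ones), was more frequent among the short ones, with 3.52% against 1.12% in the iB mouse and 5.78% against 2.10% in the B6 mouse. It has 29 nucleotides when untrimmed, more than IGHD1-1, and is annotated as a D segment pseudogene. For IGHD2-5, IGHD2-7 and IGHD2-8 the interval of the difference included 0 in both mice. IGHD3-1 was more frequent among the short clonotypes of the B6 mouse, 6.69% against 2.52%, while the values in the iB mouse were 2.82% and 2.19% with an interval of the difference of -0.630 to 2.70 points. IGHD5-1 reached the limit for naming, with 50 clonotypes, in the B6 mouse, where it had 6 short members. IGHD3-2 pointed in opposite directions, with a difference, short minus other, of -0.890 points (-2.19 to 1.20) in the iB mouse and 2.61 points (0.191 to 5.98) in the B6 mouse. The IGHD4-1 difference depended on the limit in the B6 mouse: with a limit of 9 amino acids it was 7.75 points, against 14.9 with 10, while in the iB mouse it was 34.3 against 29.1. IGHD4-1 lies at chr12:113430528-113430538 and IGHD1-1 at chr12:113482170-113482192 in the RefSeq annotation of GRCm38.p6.

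The J gene separated short from long CDR3s in both mice. The J segments encode the end of CDR3, and untrimmed they contribute 17 nucleotides (IGHJ2 and IGHJ3), 22 (IGHJ1) or 23 (IGHJ4), so their shares are tied to the length by arithmetic. IGHJ2 was used by 60.8% (57.3 to 64.2) of the short and 30.2% (29.1 to 31.3) of the other clonotypes in the iB mouse, and by 51.4% (47.6 to 55.1) and 30.9% (29.7 to 32.0) in the B6 mouse. IGHJ3 was used by 30.4% (27.2 to 33.8) against 21.9% and by 30.8% (27.5 to 34.4) against 21.9%. IGHJ4 was used by 5.77% (4.32 to 7.65) of the short and 32.4% of the other clonotypes in the iB mouse, and by 13.1% (10.7 to 15.8) and 29.1% in the B6 mouse. IGHJ1 was used by 3.01% against 15.5% and by 4.70% against 18.1%. Read the other way, 18.05% of all IGHJ2 clonotypes but 1.91% of all IGHJ4 clonotypes were short in the iB mouse, and 16.01% and 4.88% in the B6 mouse. The 4 J segments lie between IGHJ4 at chr12:113428514-113428567 and IGHJ1 at chr12:113429781-113429833 (GRCm38.p6).

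**Figure D4:**
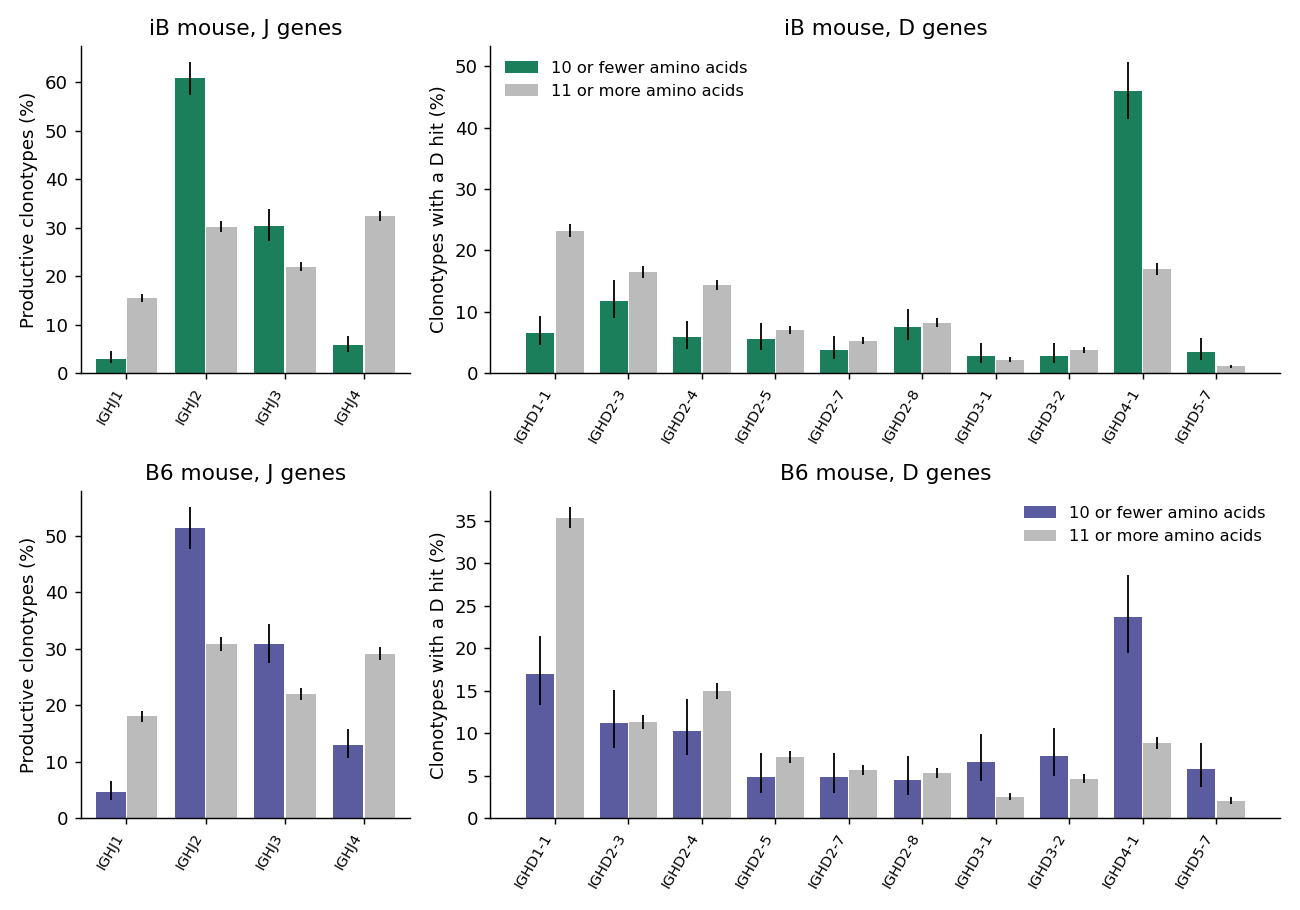
Share of each J gene among productive clonotypes (left, percent) and of each D gene with at least 50 productive clonotypes in both libraries among clonotypes with a D hit (right, percent), for CDR3s of 10 or fewer amino acids (coloured) and of 11 or more (grey) in the iB mouse (top) and the B6 mouse (bottom), with 95% Wilson intervals. IGHJ2 and IGHD4-1 stand higher and IGHJ4 and IGHD1-1 lower among the short clonotypes of both mice, and IGHD4-1 is at 46.0% in the iB mouse and 23.7% in the B6 mouse.

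The pair of IGHD4-1 and IGHJ2 was more common in the iB mouse, among the short and the other clonotypes. Among the short clonotypes each of these genes alone was also more frequent in the iB mouse. Whether they were paired more often than their separate shares give was not tested. IGHD4-1 with IGHJ2 made up 18.9% (16.3 to 21.8) of its short clonotypes and 6.28% of the others, against 6.75% (5.10 to 8.89) and 3.33% in the B6 mouse. IGHD4-1 was joined without any inserted nucleotide in 33 of 196 short clonotypes of the iB mouse (16.8%, 12.2 to 22.7). In the B6 mouse this held for 3 of 78 (3.85%, 1.32 to 10.7). Over all short clonotypes with a D hit the shares were 19.2% and 7.90%, so neither share of IGHD4-1 was higher. Among the other clonotypes with IGHD4-1 there were 53 of 1070 (iB) and 9 of 485 (B6). Clonotypes without a D hit that used IGHJ2 were 23.7% (20.8 to 26.9) and 22.9% (19.9 to 26.2) of the short ones.

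Mean trimming had higher values in short clonotypes at each segment end, but no interval of these differences was computed. The mean number of nucleotides lost from the 5′ end of J was 4.92 ± 3.37 in the short and 1.98 ± 2.45 in the other clonotypes of the iB mouse, and 6.64 ± 4.01 and 2.84 ± 3.01 in the B6 mouse. Within each J gene the short clonotypes were trimmed more than the others, and IGHJ4 was trimmed most, by 7.09 ± 3.23 nucleotides in 44 short clonotypes of the iB mouse and by 10.1 ± 3.55 in 89 of the B6 mouse, with every one of them trimmed. Trimming enters the length that chose the members, so these values are tied to the rule. An untrimmed IGHJ4 (23 nucleotides) with 9 V nucleotides would already exceed 10 amino acids. For IGHJ2 the means were 5.06 ± 3.39 and 6.46 ± 3.87, and 84.3% of the iB and 90.9% of the B6 short clonotypes had lost at least 1 nucleotide of it. At the 3′ end of V, 1.06 ± 1.58 and 1.15 ± 1.76 nucleotides were lost in the short clonotypes, against 0.535 ± 1.16 and 0.633 ± 1.29 in the others. At the 5′ end of D the losses were 4.25 ± 3.46 nucleotides in the short and 3.56 ± 3.09 in the other clonotypes of the iB mouse, and 4.29 ± 3.99 and 3.95 ± 3.26 in the B6 mouse, where the share of clonotypes trimmed at this end was lower in the short ones, 72.6% (67.6 to 77.2) against 79.2% (78.1 to 80.3). At the 3′ end of D they were 4.67 ± 7.62 against 4.10 ± 5.72, and 7.60 ± 8.98 against 4.92 ± 7.26. The share trimmed at this end was 70.2% (65.7 to 74.3) against 67.5% (66.3 to 68.6) in the iB mouse. In the B6 mouse it was 77.2% (72.4 to 81.4) against 66.5% (65.2 to 67.7). The D ends were not compared within each D gene, although D gene use differed between the sets. J trimming and inserted nucleotides both had lower values in the iB mouse than in the B6 mouse, and the mean length of the short CDR3s with a D hit was 28.7 and 28.0 nucleotides.

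The V segment encodes most of the variable domain and only the first residues of CDR3, and each V gene was compared between the short and the other clonotypes of the same mouse by Fisher's exact test (two-sided, Benjamini-Hochberg adjustment over all V genes with at least 20 productive clonotypes). The test compares sets of clonotypes of 1 mouse, not conditions. In the iB mouse 12 of 71 V genes (16.9%) passed, 6 more frequent and 6 less frequent among short clonotypes, and in the B6 mouse 9 of 64 (14.1%), 6 and 3. Of the 61 V genes tested in both mice, IGHV6-3 and IGHV14-2 were more frequent among short clonotypes in both, IGHV8-8 and IGHV8-12 less frequent in both, and none passed in opposite directions. Both percentages are the shares over all V genes tested. With a limit of 9 amino acids 1 V gene passed in the iB mouse, and with a limit of 11 there were 15 in the B6 mouse.

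The V genes called in both mice included one with a shorter and a pair with a longer end in CDR3 than most. IGHV6-3 (chr12:114391712-114392010), which reaches 8 nucleotides into CDR3 when untrimmed where most V genes reach 9, had 38 short clonotypes in the iB mouse, 29.0% (21.9 to 37.3) of its clonotypes, and 29 in the B6 mouse, 26.1% (18.9 to 35.0), with adjusted p of 3.15e-08 and 4.51e-05 in Fisher's exact test. IGHV8-8 (chr12:115294066-115294362), with 13 nucleotides, had 1 short clonotype of 138 in the iB mouse (adjusted p = 0.0004 in the exact test) and 0 of 136 in the B6 mouse (adjusted p = 3.26e-05), where the upper limit was 2.75%. IGHV8-12, also with 13 nucleotides, had 1 short clonotype in the iB mouse and 2 in the B6 mouse, 0.820% and 1.79% of its clonotypes. Over all V genes, the share of short clonotypes was 10.6% and 10.8% for V genes with 9 nucleotides, 6.80% and 7.76% for those with 11, and 1.802% and 1.23% for those with 13. The few clonotypes of V genes with 15 nucleotides were short in 2 of 44 and 4 of 22 (18.2%, 7.31 to 38.5), and those of V genes with 17 in 1 of 41 and 0 of 81. This length is part of the CDR3 length that chose the members, so the calls were repeated within the V genes of 9 nucleotides.

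Some V genes of equal end length still differed within a mouse. None was called in both mice, but several had similar shares in both. Within the V genes of 9 nucleotides, 6 of 57 (10.5%) were called in the iB mouse and 4 of 53 (7.55%) in the B6 mouse. Of the 50 tested in both mice, 0 were called in both. IGHV14-2, of which 18.3% (12.02 to 26.8) and 21.5% (13.9 to 31.8) of the clonotypes were short, no longer passed (Fisher's exact test, adjusted p = 0.0972 and 0.0538). In the iB mouse IGHV9-1, IGHV9-4, IGHV1-9 and IGHV1-53 were more frequent among the short clonotypes, with 26.7% (18.5 to 36.9) of the IGHV9-1 and 24.2% (15.5 to 35.8) of the IGHV1-9 clonotypes being short, and IGHV5-6 and IGHV5-16 were less frequent, with 6.54% (4.74 to 8.96) and 2.67% (1.04 to 6.66). In the B6 mouse IGHV1-85, IGHV14-4, IGHV1-81 and IGHV6-6 were more frequent. Their short shares were 30.4% (19.9 to 43.3), 25.4% (16.5 to 36.9), 19.8% and 28.3%. In the iB mouse, without a call, the shares in the same order were 9.80%, 17.5%, 9.28% and 20.7%. Whether the shares of these V genes differed between the mice was not tested. Because the tables list each CDR3 nucleotide sequence once, with 1 best V gene, rearrangements of different V genes that share a CDR3 are not counted apart. In 9 short clonotypes of the iB mouse and 2 of the B6 mouse the best V hit was tied.

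By family, 7 of 13 IGHV families (53.8%) passed the test in the iB mouse and 4 of 11 (36.4%) in the B6 mouse. IGHV6 and IGHV14 were more frequent among short clonotypes in both: 26.5% (20.7 to 33.2) and 26.7% (20.5 to 33.9) of the IGHV6 clonotypes were short, and 17.03% (13.3 to 21.5) and 17.4% (13.1 to 22.6) of the IGHV14 clonotypes. IGHV8 was less frequent in both, with 1.11% and 2.19% of its clonotypes being short. IGHV9 passed in the iB mouse, where it made up 13.1% of the short and 7.82% of the other clonotypes (Fisher's exact test, adjusted p = 7.76e-06), and took 6.02% of both sets in the B6 mouse. IGHV1, the largest family of the mouse, was more frequent among the short clonotypes of the iB mouse, 34.9% against 29.1% (difference 5.71 points, 2.24 to 9.32, adjusted p = 0.00282 in the exact test), while the B6 values were 62.1% and 59.3% (difference 2.85 points, -1.05 to 6.63). IGHV2 (5.50% against 8.61%) and IGHV5 (22.9% against 32.7%) were less frequent among the short ones in the iB mouse, and IGHV3 (1.76% against 4.27%) in the B6 mouse. In the respective other mouse these families did not pass, but pointed the same way. In the B6 mouse IGHV5 took 10.1% against 13.1% (difference -5.16 to -0.297 points) and IGHV2 2.20% against 2.37%. In the iB mouse IGHV3 took 4.06% against 5.83% (-3.09 to -0.0414 points). Restricted to V genes of 9 nucleotides, 3 of 11 families (27.3%) passed in the iB mouse and 3 of 8 (37.5%) in the B6 mouse. IGHV5 was then less frequent and IGHV14 more frequent in both mice, IGHV9 was more frequent in the iB mouse and IGHV6 in the B6 mouse. IGHV6 no longer passed in the iB mouse (Fisher's exact test, adjusted p = 0.0666), nor did IGHV1 (adjusted p = 0.0666) and IGHV2 (adjusted p = 0.582), and IGHV3 no longer passed in the B6 mouse (adjusted p = 0.0866). IGHV8 was not tested there, since none of its clonotypes used such a V gene. IGHV4, IGHV7 and IGHV10 did not pass in either mouse, nor did IGHV13 and IGHV15, which had enough clonotypes in the iB mouse alone. Whether a family's difference itself differed between the mice was not tested.

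**Figure D5:**
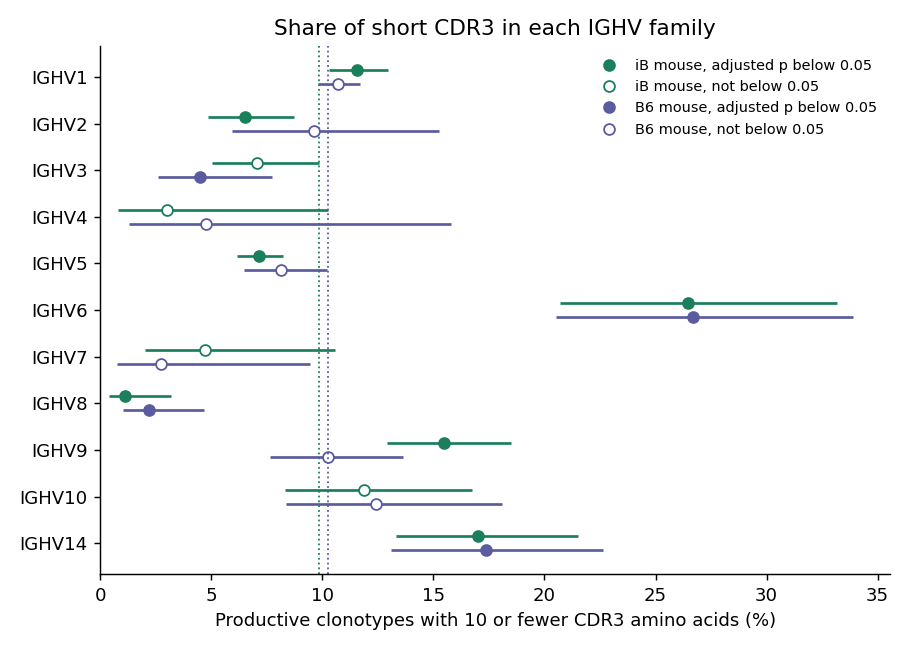
Share of the productive clonotypes of each IGHV family that had 10 or fewer CDR3 amino acids (x axis, percent) for the 11 families tested in both mice, with 95% Wilson intervals; filled points passed Fisher's exact test (adjusted p below 0.05), and dotted lines mark the share over all families, 9.86% (iB, green) and 10.3% (B6, violet). IGHV6 lies highest and IGHV8 lowest in both mice.

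Short clonotypes were not rarer in reads than longer ones. The median was 114 reads (quartiles 60.5 and 183.5) in the short and 94 (48 and 159) in the other clonotypes of the iB mouse, and 202 (24 and 337) and 187 (89.25 and 299) in the B6 mouse. The lower quartile of the short clonotypes of the B6 mouse, which hold the near copies described above, lay below that of the others, while the upper quartile lay above it. The short clonotypes took 11.2% and 10.8% of the productive reads. Among the 100 largest productive clonotypes 12 (6.999 to 19.8%) were short in the iB mouse and 21 (14.2 to 30.0%) in the B6 mouse, and among the 1000 largest 131 and 135. Only 23 and 20 short clonotypes rested on a single read. Reads were amplified without molecular identifiers, so they count neither molecules nor cells.

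A larger share of the short than of the longer CDR3 sequences was found in both mice, while the same short rearrangement was almost never found. The same CDR3 nucleotide sequence was found in the other mouse for 18 short clonotypes, 2.36% (1.497 to 3.70) of those of the iB mouse and 2.64% (1.68 to 4.14) of those of the B6 mouse, against 0.903% (0.706 to 1.15) and 1.06% (0.829 to 1.35) of the others. Of these matched clonotypes, 11.1% of the short and 88.9% of the longer ones had a D hit in each mouse. The same CDR3 amino acid sequence was found for 60 (7.86%, 6.16 to 9.99) and 56 (8.22%, 6.39 to 10.53) short clonotypes, against 2.18% (1.86 to 2.55) and 2.27% (1.92 to 2.68). A shorter sequence has fewer possible forms, so these shares depend on length itself. With the same V and J gene required as well, 1 short clonotype was shared, 0.131% (0.0231 to 0.739) of those of the iB mouse, against 33 longer ones, 0.473% (0.337 to 0.663), and it is shown because it was the only one. The 33 longer ones had a median of 1 read in the iB library and 97 in the B6 library.
both mice, IGHV5-4, IGHD3-1, IGHJ3, 96 reads (iB) and 53 reads (B6): tgtgcaagaGAtcgggggtttgcttactgg
It joined 9 V, 5 D and 14 J nucleotides with 2 between V and D. Within a mouse, the 763 short nucleotide sequences encoded 709 different amino acid sequences in the iB mouse, and the 681 of the B6 mouse encoded 665.

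The amino acids between the first and last residue also differed. These shares move with how much of CDR3 the V and J segments encode, and are given as means of each clonotype's own percentage. Tyrosine, an aromatic residue common in antigen-binding sites and encoded several times by the D segments and by IGHJ4, made up 17.96 ± 8.22% (SD over clonotypes) of the residues in the short and 23.1 ± 9.63% in the other clonotypes of the iB mouse, and 16.5 ± 8.52% and 20.3 ± 9.10% in the B6 mouse. At least 1 tyrosine was present in 98.2% and 92.8% of the short clonotypes. Serine made up 3.31% of the residues in the short and 5.21% in the other clonotypes of the iB mouse, and 4.26% and 6.35% in the B6 mouse. Methionine was found in 6.29% of the short and 34.3% of the other clonotypes of the iB mouse, and in 11.2% and 30.5% of those of the B6 mouse. IGHJ4, which carries a methionine codon near its start, was also less frequent among the short clonotypes.

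Alanine and arginine, which lie at the start of CDR3 in many V segments, held larger shares of the short CDR3s: alanine 16.4% against 13.3% (iB) and 16.4% against 12.8% (B6), arginine 10.8% against 9.25% and 11.5% against 9.67%. Leucine (difference 1.62 and 1.11 points) and threonine (1.47 points in both mice) were also higher. Phenylalanine, encoded by IGHJ2 and IGHJ3, was higher by 1.72 points (1.20 to 2.24) in the iB mouse and by 0.661 points (0.0779 to 1.24) in the B6 mouse. The mean net charge, arginine and lysine minus aspartate and glutamate, was closer to 0 in the short clonotypes, -0.203 ± 0.994 against -0.443 ± 1.20 in the iB mouse and -0.0470 ± 0.980 against -0.322 ± 1.26 in the B6 mouse. Negatively charged CDR3s made up 36.2% (32.8 to 39.6) of the short and 46.1% (44.9 to 47.3) of the other clonotypes in the iB mouse, and 32.0% (28.6 to 35.6) and 42.2% (41.0 to 43.5) in the B6 mouse. Net charge is a sum over residues, so its mean and these shares depend on length itself. Aspartate and glycine did not separate the sets, since the interval of the difference included 0 in both mice for each.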

How the data were processed

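Heavy chain clonotype tables of 1 iB-μMT mouse and 1 B6 mouse were used, and the kappa and lambda tables gave only their number of clonotypes. The authors assembled reads into clonotypes with MiXCR and deposited, for each CDR3 nucleotide sequence, a raw count of reads, the gene hits and the segment ends; bcl2fastq and mm10 are named in the submitters' notes. The best V, D and J hit was used, and each clonotype was counted once. Every CDR3 was in frame, so productive means without a stop codon. Inserted nucleotides lay between the reported V, D and J ends. Fisher's exact test (SciPy 1.17.1, pandas 2.3.3) was made per V gene or family with at least 20 productive clonotypes and was checked on simulated data. Named were all J genes, D genes with at least 50 productive clonotypes in a library, all tested families, and per library up to 4 called V genes with the largest difference in share in each direction; IGHV14-2, IGHV9-4 and IGHV6-6 were named after their values were seen. The members and gene lists were chosen with earlier results of these data known. The names looked up, 74 V, 16 D and 4 J, all matched the RefSeq table of GRCm38.p6. V genes with too few clonotypes to be tested were not looked up. At these depths 3 reads are 0.00033% (iB) and 0.000217% (B6) of the reads.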

Additional observations from a re-analysis of the deposited data

Results flagged for a closer look

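The D gene IGHD3-2 moved in opposite directions in the 2 mice. Its share among clonotypes with a D hit was lower in the short than in the other clonotypes of the iB mouse, by -0.890 percentage points (12 short clonotypes), and higher in the B6 mouse, by 2.61 points (24 short clonotypes). The interval included 0 in the iB mouse, and the difference between the mice was not tested.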

How the results depend on the processing

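No paired analysis was possible because there was 1 library per group. Of 261 values under 15 alternatives, none with an interval that excluded 0 changed sign, and 35 moved beyond the interval of the value reported or, for counts, by over 1.5 times. The share difference, iB minus B6, whose interval included 0, was 0.754 points with near copies merged and 0.829 with a limit of 11 amino acids. Inside that interval, it was -1.18 points with a limit of 9 and 0.408 weighted by reads. The difference in inserted nucleotides, short minus other, was -1.79 (iB) weighted by reads, -2.45 (iB) and -3.36 (B6) with at least 8 D nucleotides, -2.35 (iB) with a limit of 9, and -2.68 (B6) with a limit of 11. For J nucleotides it was -7.26 (B6) weighted by reads, -8.58 (iB) and -9.16 (B6) with at least 8 D nucleotides, -8.79 and -8.86 with a limit of 9, and -6.27 and -6.70 with a limit of 11. For D nucleotides it was -3.13 (iB) weighted by reads, -2.67 (iB) and -2.69 (B6) with at least 8 D nucleotides, and -4.56 (B6) with a limit of 9. V genes called numbered 1 (iB) with a limit of 9, 15 (B6) with a limit of 11, and 6 (iB) and 4 (B6) among V genes of 9 nucleotides, an alternative chosen after seeing the data. The cause of these shifts was not tested. Read minimums of 2 and 5, clonotypes defined by amino acids, a unique best V hit and leaving out clonotypes found in both mice moved no value beyond its interval. Precision is set by the number of clonotypes of 1 mouse each; the spread between mice is unknown.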
